A study of Mus musculus with 4 samples.

Results

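A set of 10 genes of fibroblast growth factor (FGF) signaling, of 32285 gene rows in the count tables, was followed by cell type, library and genotype in the proximal tissue of the mouse lower incisor. They were taken by symbol and comprised 4 ligands (Fgf3, Fgf7, Fgf9 and Fgf10), 3 receptors (Fgfr1, Fgfr2 and Fgfr3) and 3 response genes (Spry2, Dusp6 and Etv5), and all 10 had at least 358 UMIs. Single-cell RNA sequencing (10x Genomics, which counts unique molecular identifiers, UMIs, at the 3′ end of transcripts) had been run on 4 libraries at postnatal day 15, namely WT replicates 1 and 2 and Din-KO replicates 1 and 2. Din-KO mice carry a conventional knockout of Din, derived from a single clone of gene-trap embryonic stem cells with a LacZ reporter. The other mice are labelled WT, and their genotype is not described further for these libraries. How many mice went into a library is not stated in the sources used here, so p-values measure only the spread between these libraries. The comparison of genotypes asks whether FGF transcripts differ between Din-KO and WT incisors, and the comparison of cell types asks where each ligand, receptor and response gene is expressed.

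The mouse incisor grows throughout life from stem cells at its proximal end, where mesenchyme and epithelium exchange FGF signals. FGF10 and FGF3 are known as mesenchymal signals to the epithelium of the cervical loop, FGF9 as an epithelial signal to the mesenchyme, and FGF7, also called keratinocyte growth factor, as a mesenchymal signal to epithelia. The ligands bind receptor tyrosine kinases that act through RAS and the ERK kinases. SPRY2 restrains that pathway, DUSP6 is a phosphatase that inactivates ERK, and ETV5 is an ETS-family transcription factor, and transcription of all 3 is raised by ERK signaling in many tissues.

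The ligands differ in the form of FGFR2 that they bind. FGF3, FGF7 and FGF10 bind the IIIb form, which is typical of epithelia, and FGF9 binds the IIIc form, which is typical of mesenchyme. The forms differ by alternative exons in the extracellular part of the receptor. Counts made at the 3′ end were given per gene, so Fgfr2 values below are sums over both forms.

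The 4 count tables held 32198098 to 54348039 UMIs, and 11310 of 20502 barcodes passed the filters (3903 and 1560 in the WT libraries, 4575 and 1272 in the Din-KO libraries). Any pair of libraries shared at most 4 barcodes. Clusters were built without the FGF genes and were called "-like" from marker genes. Levels are given as CPM, the UMIs of a gene scaled to 1e6 UMIs summed over the cells of a class in a library, for classes with at least 20 cells, and in the order WT 1, WT 2, Din-KO 1 and Din-KO 2. Levels are compared within a gene, between classes or libraries. Free RNA in droplets was not removed. Xist UMIs marked 92.3% and 85.1% of cells in the WT libraries but 38.2% and 45.2% in the Din-KO libraries. Cells with Y-linked UMIs (1779 and 468) were found in Din-KO libraries only. In sums over all cells of a class, genotype and sex of the pooled cells therefore cannot be told apart. Fits limited to Xist-positive cells, of which the Din-KO libraries held 1747 and 575, were run as an alternative. Din itself was counted at 36.4, 28.6, 22.9 and 28.2 CPM in mesenchyme-like cells, so its loss was not visible in these counts. Why Din tags remained in the Din-KO libraries was not tested, and the counts do not check the labels. The classes counted 207, 30, 569 and 55 apical pulp-like cells (1 cluster), 1554, 186, 1438 and 101 other dental pulp-like cells, 332, 424, 362 and 305 dental follicle-like cells, and 257, 188, 416 and 159 odontoblast-like cells. The last class held 2 kinds of cluster, separated here for description after the values were seen. Dspp and Dmp1, which mark mature odontoblasts, led in 226 cells, whereas 794 cells with high Smpd3, a further odontoblast marker, had Dspp and Dmp1 UMIs in fewer than 10% of cells each. Most of the 794 cells were scored as cycling (S or G2M phase), at 62.9% and 99.4% in their clusters of 634 and 160 cells. The shares were 0% and 3.26% in the Dspp/Dmp1 clusters of 134 and 92 cells, and 40.8% in apical pulp-like cells. Dspp UMIs were seen in 8.20% and 5.63% of cells of the Smpd3-high clusters, below 14.9% in epithelium-like cells outside the ameloblast lineage.

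Fgf10 (ENSMUSG00000021732, chromosome 13, 118669791 to 118792115, GRCm38) was highest in apical pulp-like cells, with 93.8, 54.5, 102.0 and 73.9 CPM. Other dental pulp-like cells held 1.87, 5.17, 4.53 and 8.86 CPM, so that the lowest apical value was above the highest value of the rest of the pulp. Smpd3-high mesenchyme held 38.2, 35.6, 57.5 and 56.5 CPM, a range that overlapped the apical one at its top. The 861 apical pulp-like cells carried 30.2% of all 1638 Fgf10 UMIs and the 794 Smpd3-high cells 42.9%. In Dspp/Dmp1 odontoblast-like cells (34, 85, 45 and 62 cells) Fgf10 split by replicate number in both genotypes, at 54.5, 2.45, 64.0 and 2.32 CPM. This class pooled a first cluster of 9, 65, 16 and 44 cells with a second of 25, 20, 29 and 18 cells. Over libraries with at least 20 cells, mean Fgf10 was 0.553 CPM in the first and 54.1 CPM (6.28 to 86.3) in the second. The part of this make-up in the split was not tested. Epithelium-like cells held 0, 0, 2 and 3 Fgf10 UMIs in all, where a count of 0 allows up to 3. An Fgf10 UMI was seen in 36.7%, 43.3%, 35.0% and 40.0% of apical pulp-like cells, against 13 of 1412 macrophage-like cells, a class that should lack it, at median depths of 4304 to 11480 and 8933 to 10597 UMIs per cell. After thinning each cell to 2000 UMIs (206, 30, 564 and 54 apical cells left) the apical shares were 14.1%, 10.0%, 16.8% and 11.1%.

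Fgf3 (ENSMUSG00000031074, chromosome 7, 144838083 to 144844436) was highest in Smpd3-high mesenchyme, with 67.4, 74.1, 66.5 and 116 CPM, and 72.8% of its 1541 UMIs came from these 794 cells. Apical pulp-like cells held 12.5, 25.8, 12.2 and 68.5 CPM, of which the Din-KO replicate 2 value reached the Smpd3-high range. Other dental pulp-like cells ranged from 2.81 to 27.6 CPM. Of their 153 Fgf3 UMIs, 146 came from a cluster of 1278 cells. That cluster held 7.32, 14.5, 12.7 and 52.6 CPM, which overlapped the apical values. Fgf3 and Fgf10 thus shared their 2 leading classes among those seen in all 4 libraries, in the opposite order.

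Fgf7 (ENSMUSG00000027208, chromosome 2, 126034658 to 126091185) was highest in dental follicle-like cells, the tissue around the tooth, with 14.7, 8.78, 14.3 and 12.9 CPM. These cells carried 85.5% of its 358 UMIs, and apical pulp-like cells followed with 2.78, 8.60, 1.70 and 5.41 CPM from 15 UMIs in all. The 2 ranges did not overlap, but the nearest values, 8.60 and 8.78 CPM, were close. The largest cluster of the follicle-like class, with 615 cells, had a mean of only 2.31 CPM, below the apical mean of 4.62 CPM. Its clusters of 439, 200 and 169 cells had means of 21.8, 22.0 and 27.1 CPM. Perivascular-like cells numbered 27, 18, 24 and 10 at the clustering resolution of 1 but 50, 80, 68 and 50 at 0.5, so class labels depend on the clustering. Whether the cluster of 169 cells would keep the name follicle-like at 0.5 was not tested. A single Fgf7 UMI was counted in 1412 macrophage-like cells.

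Fgf9 (ENSMUSG00000021974, chromosome 14, 58070547 to 58112720) was the epithelial ligand of the set. Epithelium-like cells outside the ameloblast lineage held 34.1, 53.0, 28.3 and 74.2 CPM in 121, 32, 122 and 55 cells, and they carried 72.3% of its 412 UMIs. Ameloblast lineage-like cells, which make enamel, held 1.38, 3.96, 3.90 and 9.02 CPM, below all 4 of the former values. The next class, dental follicle-like cells, had a mean of 1.25 ± 1.17 CPM (SD, n = 4).

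**Figure D1:**
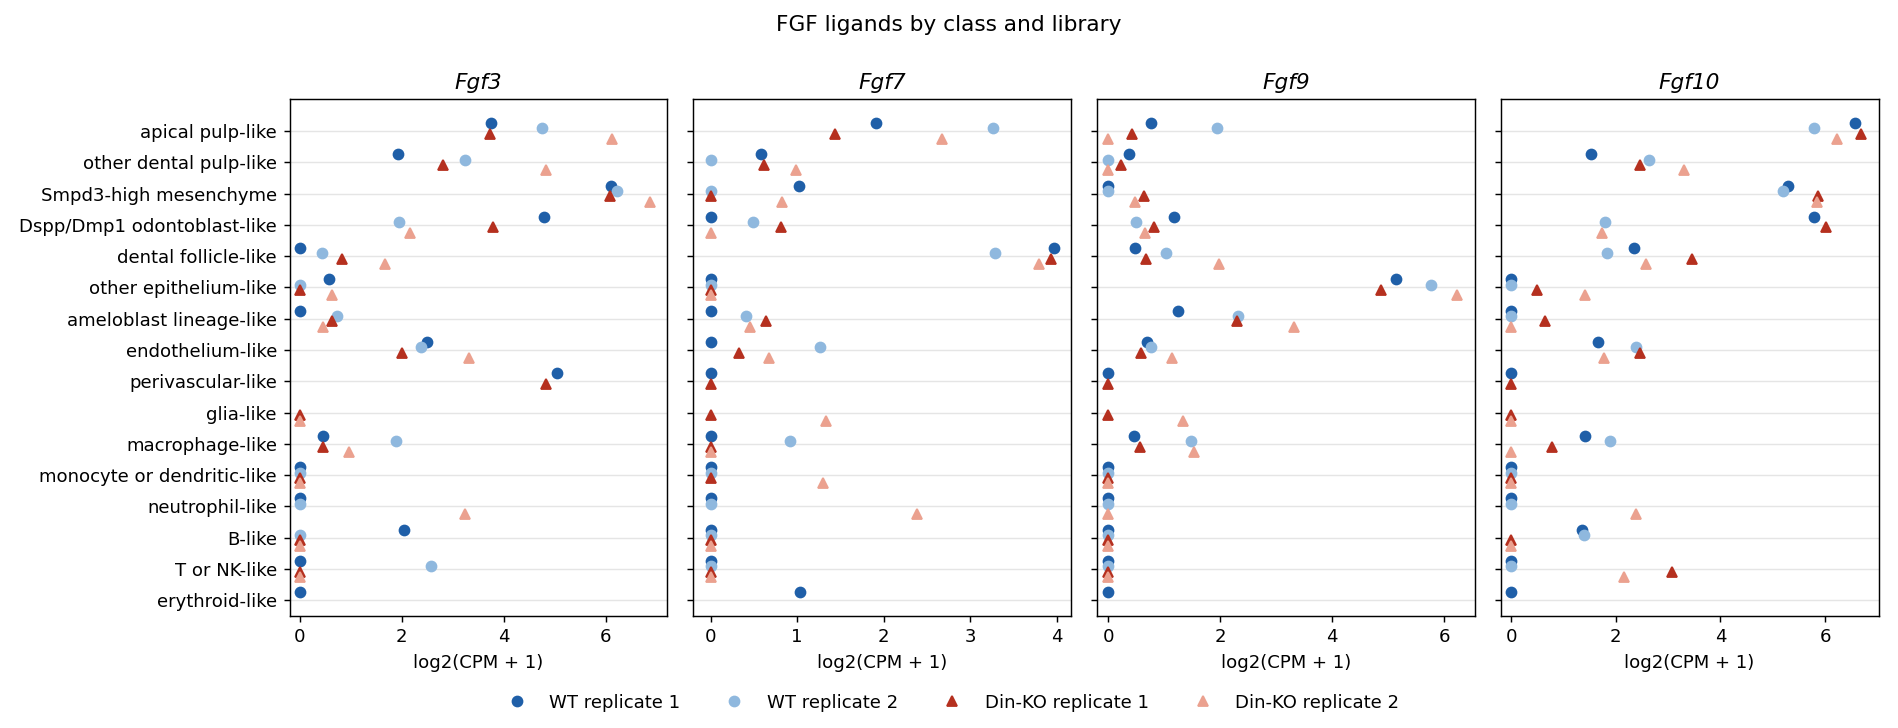
Levels of the 4 ligands, as log2(CPM + 1) on the horizontal axes, in each class (rows) and library (points; circles WT, triangles Din-KO; classes under 20 cells in a library not drawn). Fgf10 led in apical pulp-like cells at 54.5 to 102.0 CPM, Fgf3 in Smpd3-high mesenchyme at 66.5 to 116 CPM, Fgf7 in dental follicle-like cells at 8.78 to 14.7 CPM, and Fgf9 in epithelium-like cells outside the ameloblast lineage at 28.3 to 74.2 CPM.

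Classes were compared with edgeR's quasi-likelihood test on UMIs summed per class and library, with the library as a block, and Benjamini-Hochberg adjustment over all genes tested at 0.05. Fitted log2 fold changes (SE) are on normalized library sizes and need not equal ratios of CPM. The classes were formed from other genes of the same cells, so the p-values describe how these sets of cells differ and do not test that the sets exist. Between epithelium-like and mesenchyme-like cells 36.6% of 13305 genes were called, and 8 of the 10 FGF genes were. Between apical and other dental pulp-like cells the share was 31.9% of 10604 genes and 5 of 8 FGF genes tested. Between dental pulp-like and dental follicle-like cells it was 42.1% of 12869 genes and 6 of 9, and between odontoblast-like (both kinds of cluster) and dental pulp-like cells 48.0% of 12237 genes and 7 of 8. The set was chosen with earlier results of these data known, and no test was made of these counts.

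Among the ligands, Fgf9 was higher in epithelium-like than in mesenchyme-like cells by 5.31 (SE 0.35, adjusted p = 0.00018). Fgf10, Fgf3 and Fgf7 were lower in epithelium-like cells by log2 fold changes of -5.57 (SE 0.45), -5.29 (SE 0.34) and -4.19 (SE 0.53), each in 4 of 4 libraries, although at 0 to 3 epithelial UMIs a library the size of these folds rests on few counts. Within the pulp, Fgf10 was higher in apical cells by 4.60 (SE 0.30, adjusted p = 7.0e-07) and Fgf3 by 1.45 (SE 0.24, adjusted p = 0.00073), both in 4 of 4 libraries. The Fgf3 fold was 0.96 at a clustering resolution of 0.5, its call was lost without the library block (1.67, adjusted p = 0.143), and its adjusted p ranged from 1.5e-07 to 0.143 over the alternatives. Fgf7 and Fgf9 did not pass the filter on low counts there. Dental pulp-like exceeded dental follicle-like cells by 4.25 (SE 0.35) for Fgf3 and by 1.80 (SE 0.25) for Fgf10 (2.78 at a resolution of 0.5), and Fgf7 ran the other way, at -3.85 (SE 0.32, adjusted p = 6.7e-05). Odontoblast-like exceeded dental pulp-like cells by 2.71 (SE 0.45) for Fgf3 and 1.35 (SE 0.25) for Fgf10. Neither fold described both kinds of cluster. Dspp/Dmp1 odontoblast-like cells held 26.6, 2.86, 12.8 and 3.49 CPM of Fgf3 against 3.72, 10.9, 7.33 and 42.0 CPM in dental pulp-like cells. For Fgf10 they held 54.5, 2.45, 64.0 and 2.32 CPM against 10.5, 12.1, 24.7 and 31.9 CPM. They were lower for both genes in both replicates numbered 2. In those libraries 65 of 85 and 44 of 62 of these cells were of the first cluster of the class. Mean Fgf3 was 0 CPM in that cluster and 20.4 CPM in the second. The part of this make-up was not tested.

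Fgfr1 (ENSMUSG00000031565, chromosome 8, 25513654 to 25575718) had 38835 UMIs in 7434 of the 11310 cells. It was highest in other dental pulp-like cells, at 556, 817, 633 and 764 CPM, and apical pulp-like cells held 203, 321, 196 and 211 CPM. The 2 groups of values did not overlap, and the fold was -1.57 (SE 0.10, adjusted p = 7.1e-07) in apical cells. Dspp/Dmp1 odontoblast-like cells spread widely, from 242 CPM in WT replicate 1 to 983 CPM in WT replicate 2, which overlapped the pulp and the apical values. The first and second clusters of this class had means of 1001 and 349 CPM. Dental pulp-like exceeded follicle-like cells by 1.52 (SE 0.09, adjusted p = 1.3e-05). Fgfr1 was lower in epithelium-like cells by a log2 fold change of -0.50 (SE 0.16, adjusted p = 0.047), a call that was lost without WT replicate 1 (-0.41), without WT replicate 2 (-0.45) or without Din-KO replicate 1 (-0.46), with adjusted p from 0.022 to 0.182 over the alternatives. Against dental pulp-like cells, odontoblast-like cells gave -0.67 (SE 0.27, adjusted p = 0.073), which was called without WT replicate 2 (-0.93, adjusted p = 0.020; 0.011 to 0.369 over the alternatives).

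Fgfr2 (ENSMUSG00000030849, chromosome 7, 130162451 to 133123350, minus strand) was highest in dental follicle-like cells, at 163, 173, 144 and 193 CPM, where Fgf7 also led. Epithelium-like cells outside the ameloblast lineage followed at 41.8, 91.2, 60.8 and 111 CPM, which overlapped apical pulp-like cells at 33.4, 83.1, 39.1 and 43.3 CPM. Within the follicle-like class, Fgf7 and Fgfr2 were not high in all the same clusters. Its largest cluster, of 615 cells, had means of 135 CPM of Fgfr2 but 2.31 CPM of Fgf7. Its cluster of 169 cells had 41.3 CPM of Fgfr2 and 27.1 CPM of Fgf7. Both genes were high in the clusters of 439 and 200 cells (Fgfr2 236 and 263 CPM, Fgf7 21.8 and 22.0 CPM). The follicle exceeded the dental pulp in all 4 libraries (dental pulp-like against follicle-like -1.87, SE 0.08, adjusted p = 4.9e-06). Apical and other dental pulp-like cells gave -0.07 (SE 0.16, adjusted p = 0.803), with either sign over the alternatives. Odontoblast-like cells were lower than dental pulp-like cells (-2.23, SE 0.15, adjusted p = 3.9e-05), and epithelium-like against mesenchyme-like cells gave -0.89 (SE 0.31, adjusted p = 0.066).

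Fgfr3 (ENSMUSG00000054252, chromosome 5, 33721674 to 33737068) was highest in other dental pulp-like cells, at 126, 224, 144 and 154 CPM. Apical pulp-like cells held 18.1, 17.2, 17.3 and 16.2 CPM, nearly level across the libraries, and the fold was -3.07 (SE 0.14, adjusted p = 6.2e-08). Dental pulp-like exceeded follicle-like cells by 2.35 (SE 0.21), and odontoblast-like cells were lower than dental pulp-like cells (-2.67, SE 0.12). Epithelium-like cells held 6.42, 2.28, 6.20 and 8.73 CPM, and the fold against mesenchyme was -2.97 (SE 0.36, adjusted p = 0.0015). Fgfr1 and Fgfr3 were thus lower, and Fgf10 and Fgf3 higher, in apical than in other pulp cells.

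**Figure D2:**
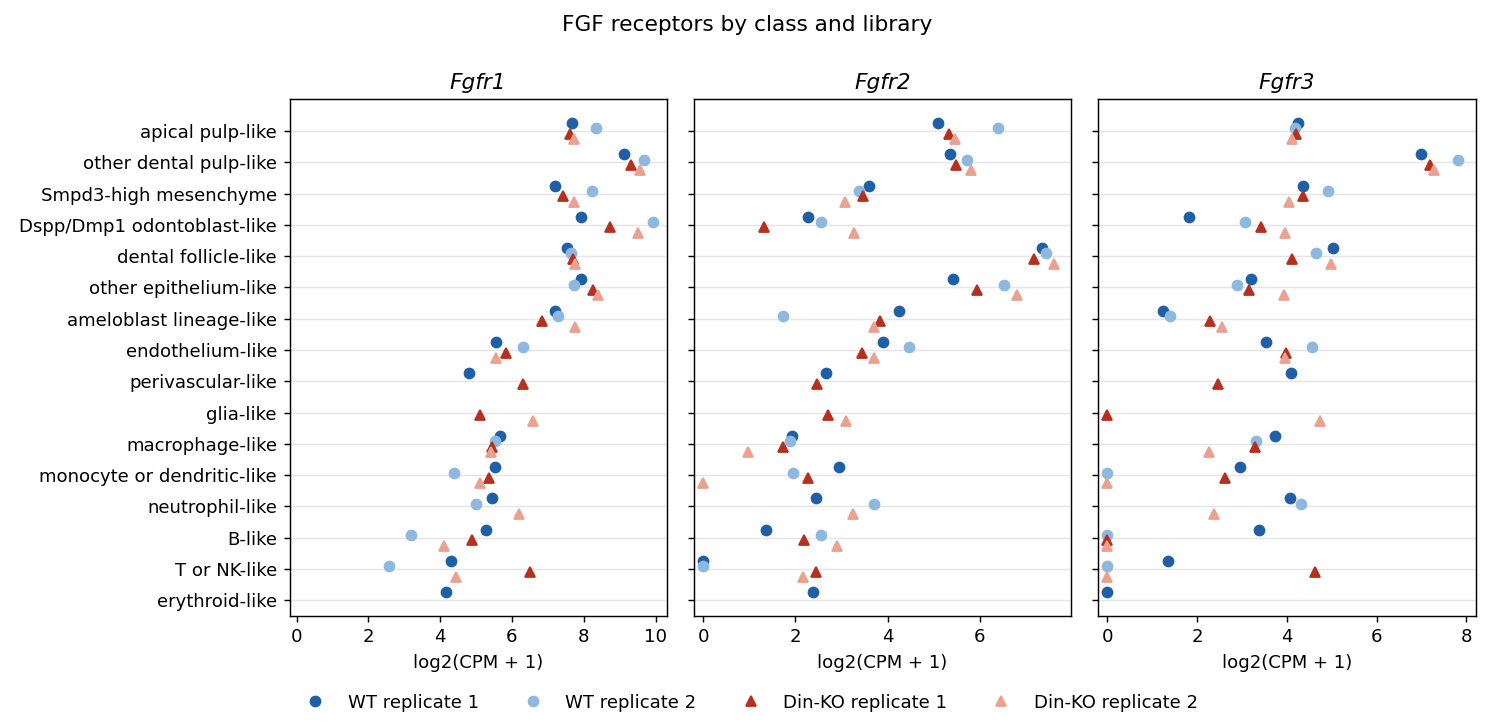
Levels of the 3 receptors, as log2(CPM + 1) on the horizontal axes, in each class (rows) and library (points; circles WT, triangles Din-KO). Fgfr1 and Fgfr3 led in other dental pulp-like cells, at 556 to 817 and 126 to 224 CPM, and Fgfr2 in dental follicle-like cells, at 144 to 193 CPM.

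The response genes were spread over more cell types than the ligands, and none of the 3 was highest in apical pulp. Dusp6 (ENSMUSG00000019960, chromosome 10, 99263231 to 99267489) was highest in macrophage-like cells, at 196, 237, 234 and 206 CPM, and endothelium-like cells at 138, 194, 154 and 231 CPM overlapped them. Macrophage-like cells carried 46.3% of its 7476 UMIs. Among tooth cells, epithelium-like cells outside the ameloblast lineage held 42.3, 14.8, 57.9 and 54.8 CPM. Apical pulp-like cells held 7.65, 14.3, 12.2 and 52.3 CPM, of which Din-KO replicate 2 stood above the other 3 libraries.

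Etv5 (ENSMUSG00000013089, chromosome 16, 22381309 to 22439719, minus strand) was highest in Dspp/Dmp1 odontoblast-like cells, at 48.2, 34.8, 78.3 and 36.6 CPM, and macrophage-like cells at 38.5, 52.1, 53.3 and 49.4 CPM overlapped them. The first and second clusters of the Dspp/Dmp1 class had means of 10.6 and 81.4 CPM over libraries with at least 20 cells. The high level of this class was thus that of its second cluster, and the first lay below macrophage-like cells. Epithelium-like cells outside the ameloblast lineage held 34.6, 29.7, 65.0 and 35.4 CPM. Smpd3-high mesenchyme held 22.7, 26.1, 31.2 and 39.8 CPM, where Fgf3 led. Apical pulp-like cells held 10.4, 14.3, 15.6 and 16.2 CPM against 1.58, 2.35, 5.42 and 5.91 CPM in other dental pulp-like cells, with no overlap.

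Spry2 (ENSMUSG00000022114, chromosome 14, 105891947 to 105896819, minus strand) was highest in T or NK-like cells, at 10.9, 143, 72.5 and 93.3 CPM, with WT replicate 1 far below the other 3 libraries. Epithelium-like cells outside the ameloblast lineage held 35.1, 14.8, 34.2 and 84.1 CPM. Apical pulp-like cells (9.18 to 22.9 CPM) and other dental pulp-like cells (5.40 to 21.7 CPM) overlapped.

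Of the response genes, Etv5 was called in the pulp, higher in apical cells by 1.93 (SE 0.31, adjusted p = 0.00064, 4 of 4 libraries). Dusp6 (0.44, SE 0.22, adjusted p = 0.147) and Spry2 (0.38, SE 0.26, adjusted p = 0.293) were not. In odontoblast-like against dental pulp-like cells Etv5 was higher by 2.94 (SE 0.23, adjusted p = 6.7e-05). Spry2 was higher by 1.14 (SE 0.20, adjusted p = 0.0028) and Dusp6 by 0.79 (SE 0.23, adjusted p = 0.024). The Dusp6 fold did not describe both kinds of cluster. Dspp/Dmp1 odontoblast-like cells had a mean of 11.8 CPM (5.07 to 18.0), below 16.8 CPM (6.45 to 36.3) in dental pulp-like cells. Smpd3-high mesenchyme had a mean of 23.6 CPM (16.0 to 34.7). The Dusp6 call was lost without WT replicate 1 (0.62), without Din-KO replicate 1 (0.63) or without the library block (0.69), with adjusted p from 0.0036 to 0.279 over the alternatives. Between dental pulp-like and follicle-like cells none of the 3 was called (Spry2 0.17, Dusp6 -0.17 and Etv5 -0.59, adjusted p of 0.387, 0.744 and 0.113). Epithelium-like exceeded mesenchyme-like cells for Spry2 by 1.09 (SE 0.33, adjusted p = 0.045) and for Dusp6 by 1.01 (SE 0.32, adjusted p = 0.049), each in 3 of 4 libraries with WT replicate 2 the other way, and Etv5 gave 0.91 (SE 0.35, adjusted p = 0.087). The Spry2 call was lost without WT replicate 1 (0.80), Din-KO replicate 1 (1.11) or Din-KO replicate 2 (1.01), and the Dusp6 call without WT replicate 1 (0.77), Din-KO replicate 1 (0.82) or Din-KO replicate 2 (1.14), with adjusted p of 0.0084 to 0.154 and 0.015 to 0.194 over the alternatives. In WT replicate 2, ameloblast lineage-like cells, which held 6.92 to 9.40 CPM of Spry2 and 2.23 to 10.2 CPM of Dusp6 over the libraries, were 89 cells against 32 other epithelium-like cells. The part of this make-up in the result was not tested.

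**Figure D3:**
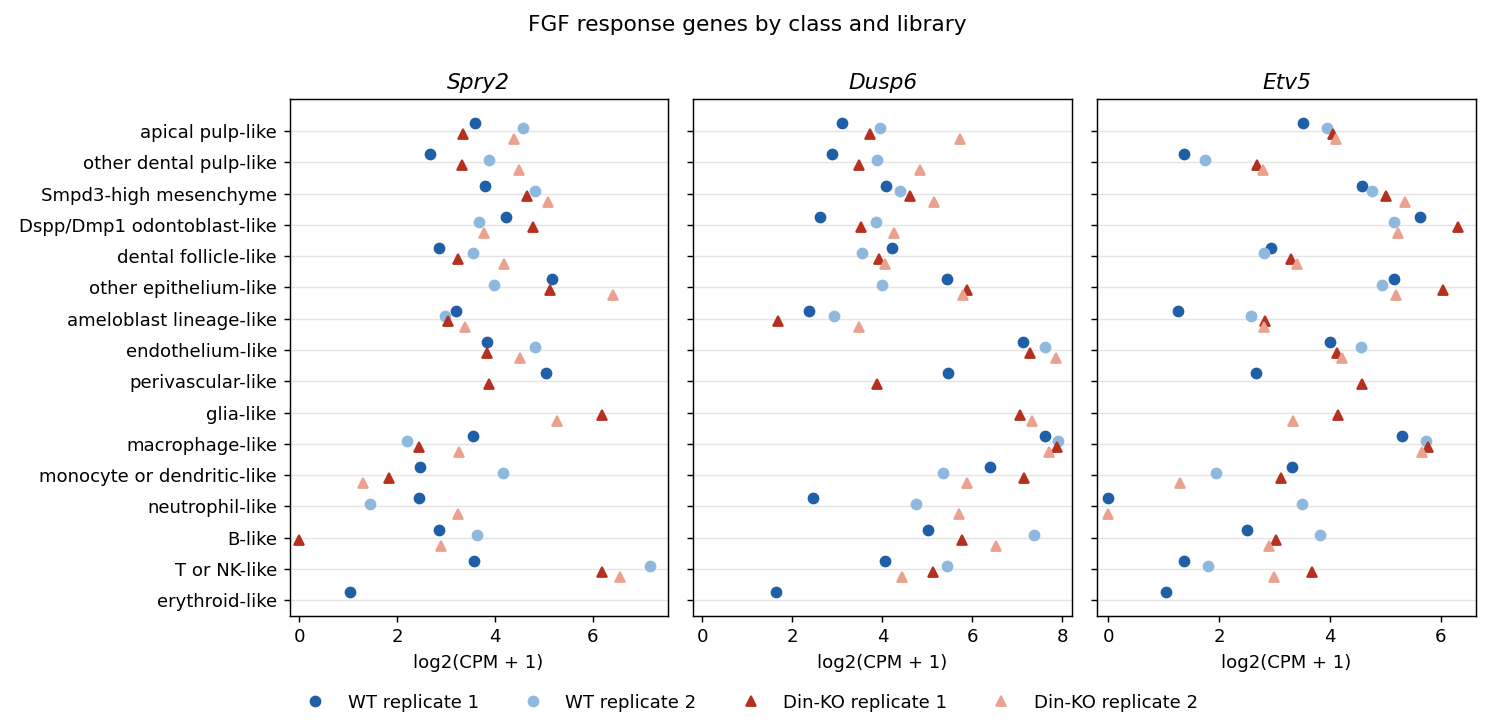
Levels of the 3 response genes, as log2(CPM + 1) on the horizontal axes, in each class (rows) and library (points; circles WT, triangles Din-KO). Dusp6 led in macrophage-like cells at 196 to 237 CPM and Spry2 in T or NK-like cells at 10.9 to 143 CPM. Etv5 had close means in Dspp/Dmp1 odontoblast-like cells, at 34.8 to 78.3 CPM, and macrophage-like cells, at 38.5 to 53.3 CPM.

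The other 56 genes of the FGF pathway listed for comparison comprised 18 ligands, 9 receptors and cofactors, 16 transducers and 13 feedback and target genes. In apical against other dental pulp-like cells 8 of 9 feedback genes tested were higher and 0 lower, where 1678 of all 10604 genes were higher and 1700 lower (31.9% called), with a median log2 fold change of 0.97 against 0.01 over all genes. They included Spry4, a further Sprouty inhibitor (2.87, SE 0.26), Etv1, an ETS factor related to Etv5 (2.03, SE 0.39), Spred2 (1.65, SE 0.23), Phlda1 (1.50, SE 0.33) and Dusp7 (0.96, SE 0.19). Of the 15 transducers tested there 1 was higher, Gab1 (0.98, SE 0.18), and 2 were lower, Map2k1 (-1.06, SE 0.14) and Mapk3 (-0.60, SE 0.12). The ligand Fgf2 was higher (0.71, SE 0.20) and Fgf13 lower (-0.53, SE 0.18). Of the cofactors Flrt1 was higher (3.95, SE 0.23) and Flrt2 (-1.11, SE 0.22) and Flrt3 (-0.61, SE 0.16) lower. Genes that mark stress during dissociation (Fos, Jun and Hspa1a among them) summed to 934, 3571, 2973 and 6165 CPM in apical pulp-like cells. The sums were 479, 1498, 540 and 2014 CPM in other dental pulp-like cells. The part of this difference in the feedback folds, or in that of Etv5, was not tested.

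In odontoblast-like against dental pulp-like cells 9 of 11 feedback genes tested were higher and 1, Dusp5 (-1.23, SE 0.26), was lower. Of all 12237 genes, 2959 were higher and 2911 lower (48.0% called). The median was 0.77 against -0.01 over all genes. The odontoblast-like class pooled 794 Smpd3-high cells, most of them scored as cycling, with 226 Dspp/Dmp1 odontoblast-like cells. The folds given here were not split by kind, and the part of the cell cycle in them was not tested. Etv4 (4.24, SE 0.35), Spry1 (3.05, SE 0.32) and Spry4 (2.53, SE 0.36) had the largest folds. Fgf8, a ligand known from early tooth epithelium, was higher by 6.40 (SE 0.37) at 10.9 ± 2.97 CPM (SD, n = 4), and Fgf2 was lower (-1.86, SE 0.21). All 4 receptors and cofactors called were lower, among them Flrt1 (-1.82, SE 0.28). Of 16 transducers, 5 were higher and 7 lower.

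In epithelium-like against mesenchyme-like cells 8 of 38 were higher and 7 lower, a share near the 36.6% called over all genes, with Fgf1 (3.28, SE 0.31) the 1 ligand that was higher and Fgf8 (-4.28, SE 0.60), Fgf2 (-4.25, SE 0.57) and Fgf13 (-3.83, SE 0.41) lower. Of 11 feedback genes, Etv1 (2.64, SE 0.43) and Il17rd (0.66, SE 0.14) were higher and Spry4 lower (-1.77, SE 0.32), and Hras led the 5 transducers that were higher (2.88, SE 0.16). In dental pulp-like against follicle-like cells 7 of 37 were higher and 11 lower, where 42.1% of all genes were called, among them 1 feedback gene higher, Il17rd (1.22, SE 0.28), and 3 lower, Phlda1 (-1.61, SE 0.16), Etv4 (-1.36, SE 0.43) and Dusp7 (-0.39, SE 0.13).

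Genotypes were compared in 5 classes by the same test on 2 libraries against 2, without a block. None of the 10 FGF genes passed the adjusted threshold in any of these fits. In mesenchyme-like cells 0 of 15205 genes (0%) were called by edgeR, with 167 at an unadjusted p under 0.05 and 16 called by DESeq2. The figures were 2 of 13503 genes (0.0148%), 280 and 16 in dental pulp-like cells, 0 of 9268 (0%), 127 and 3 in apical pulp-like cells, 0 of 12968 (0%), 288 and 41 in follicle-like cells, and 0 of 11493 (0%), 144 and 6 in epithelium-like cells. DESeq2 called none of the FGF genes. A term for a genotype difference that differs between epithelium and mesenchyme was called for 0 of 13305 genes (0%), with 211 at an unadjusted p under 0.05, and this term was not fitted in DESeq2. With 2 libraries a genotype, the smallest two-sided p of an exact permutation test is 0.333.

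In mesenchyme-like cells 4 of 10 FGF genes were higher in each Din-KO library than in either WT library, against 11.7% of all genes tested, and 0 were lower in each, against 6.45%. Fgf10 held 14.9 and 9.62 CPM in WT and 30.7 and 18.8 CPM in Din-KO (0.98, SE 0.37, adjusted p = 1.00). Fgf3 held 13.5 and 14.9 CPM in WT and 18.6 and 31.1 CPM in Din-KO (0.77, SE 0.30, adjusted p = 1.00). Dusp6 (10.2 and 13.2 against 14.0 and 22.6 CPM, fold 0.60, SE 0.32) and Etv5 (7.84 and 13.4 against 16.3 and 19.7 CPM, fold 0.72, SE 0.33) likewise did not overlap between genotypes. The other 6 genes did. The make-up of the mesenchyme moved with these values. Smpd3-high cells were 9.49% and 12.4% of mesenchyme-like cells in WT and 13.3% and 15.7% in Din-KO. Apical cells were 8.81% and 3.62% in WT and 20.4% and 8.87% in Din-KO. The Smpd3-high and apical shares are for the clustering resolution of 1 and depend on it. Dental follicle-like cells split by replicate number instead, at 332 of 2350, 424 of 828, 362 of 2785 and 305 of 620 mesenchyme-like cells. The part of this make-up in the 4 genes' differences was not tested.

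In dental pulp-like cells the genotypes did not overlap for 2 of 9 genes tested, both higher in Din-KO, against 11.2% of genes higher and 12.7% lower. Fgf10 held 10.5 and 12.1 CPM in WT and 24.7 and 31.9 CPM in Din-KO, a log2 fold change of 1.30 (SE 0.27, unadjusted p = 0.0015 and adjusted p = 1.00 in edgeR). Etv5 held 2.41 and 4.04 CPM in WT and 7.54 and 9.55 CPM in Din-KO (1.46, SE 0.44, adjusted p = 1.00). Fgf3 (1.76, SE 0.82) overlapped between genotypes, at 3.72 and 10.9 against 7.33 and 42.0 CPM, and so did Dusp6 (1.17, SE 0.59), at 6.45 and 13.7 against 10.6 and 36.3 CPM. Leaving out Din-KO replicate 1 called Fgf3 (2.66, adjusted p = 3.3e-05) and Dusp6 (1.90, adjusted p = 0.013), and leaving out WT replicate 2 called Fgf3 (2.41, adjusted p = 0.0067), but these fits leave 1 library in a genotype, Din-KO replicate 2 or WT replicate 1, which is assumed to vary like the pair in the other.

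The make-up of the dental pulp moved with these values. Apical cells were 11.8% and 13.9% of dental pulp-like cells in WT and 28.4% and 35.3% in Din-KO. These shares are for the clustering resolution of 1, where the apical cluster held 207, 30, 569 and 55 cells. At a resolution of 0.5 it held 230, 61, 625 and 88 cells. The count in WT replicate 2 thus rose from 30 to 61, so the shares depend on the clustering. At the resolution of 1, apical cells carried 83.9%, 63.3%, 85.5% and 82.0% of the Fgf10 UMIs of the dental pulp. Their share of its Etv5 UMIs was 40.5%, 50%, 43.0% and 60%. In other dental pulp-like cells Etv5 did not overlap between genotypes, at 1.58 and 2.35 CPM in WT and 5.42 and 5.91 CPM in Din-KO. These values rest on 94 UMIs in all, of which a cluster of 1278 cells carried 69. That cluster made up 465 of 1554, 100 of 186, 653 of 1438 and 60 of 101 other dental pulp-like cells, so the make-up of this class moved too. Within apical pulp-like cells the Fgf10 fold was 0.23 (SE 0.37, adjusted p = 1.00), from overlapping levels, and it turned to -0.08 without WT replicate 2 or without Din-KO replicate 1. Summed levels of immediate early and heat shock genes that mark stress during dissociation (Fos, Jun, Hspa1a and 7 more) in apical pulp-like cells were 934, 3571, 2973 and 6165 CPM. The part of either in the genotype difference was not tested.

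**Figure D4:**
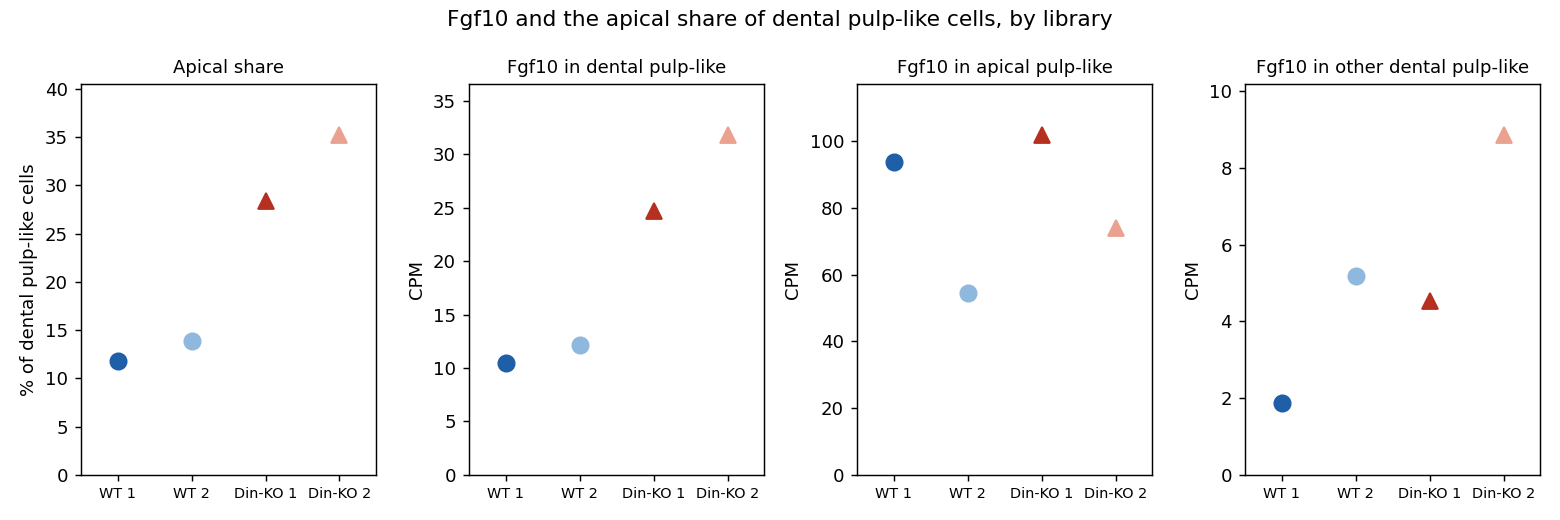
Fgf10 in the dental pulp by library. The panels show the share of apical pulp-like cells (percent of dental pulp-like cells). Beside it are Fgf10 levels (CPM) in all dental pulp-like, apical and other dental pulp-like cells (points are libraries). At the clustering resolution of 1, the apical share was 11.8% and 13.9% in WT and 28.4% and 35.3% in Din-KO. Apical Fgf10 overlapped between genotypes, at 54.5 to 102.0 CPM.

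In apical pulp-like cells 1 of 8 genes tested, Etv5, did not overlap and was higher in Din-KO, against 12.7% of genes higher and 13.7% lower. Its 4 values lay between 10.4 and 16.2 CPM and rest on 75 UMIs in all, with only 30 apical cells in WT replicate 2. Dusp6 gave 1.50 (SE 0.79, adjusted p = 1.00) from 7.65 and 14.3 against 12.2 and 52.3 CPM, so the size came mainly from Din-KO replicate 2. In follicle-like cells Fgf10, Fgfr1 and Etv5 of 8 genes tested were higher in both Din-KO libraries, against 15.4% higher and 8.04% lower. In epithelium-like cells Fgfr1 and Fgfr2 of 7 genes tested were higher in both Din-KO libraries, against 17.8% higher and 3.32% lower. The ligand of the epithelium, Fgf9, overlapped there, at 25.7 and 10.6 against 17.9 and 35.4 CPM (0.52, SE 0.50, adjusted p = 1.00), and turned to -0.13 without Din-KO replicate 2. In none of these 3 classes did a tested FGF gene lie lower in both Din-KO libraries. In epithelium-like cells outside the ameloblast lineage, Fgfr2 overlapped between genotypes, with means of 66.5 ± 34.9 CPM in WT and 86.0 ± 35.6 CPM in Din-KO (SD). Fgfr1 had means of 227 ± 21.1 and 322 ± 21.6 CPM in the same cells. Ameloblast lineage-like cells, with a mean of 11.4 CPM of Fgfr2, were 24 of 145, 89 of 121, 55 of 177 and 80 of 135 epithelium-like cells. The part of this make-up in the Fgfr2 difference was not tested.

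**Figure D5:**
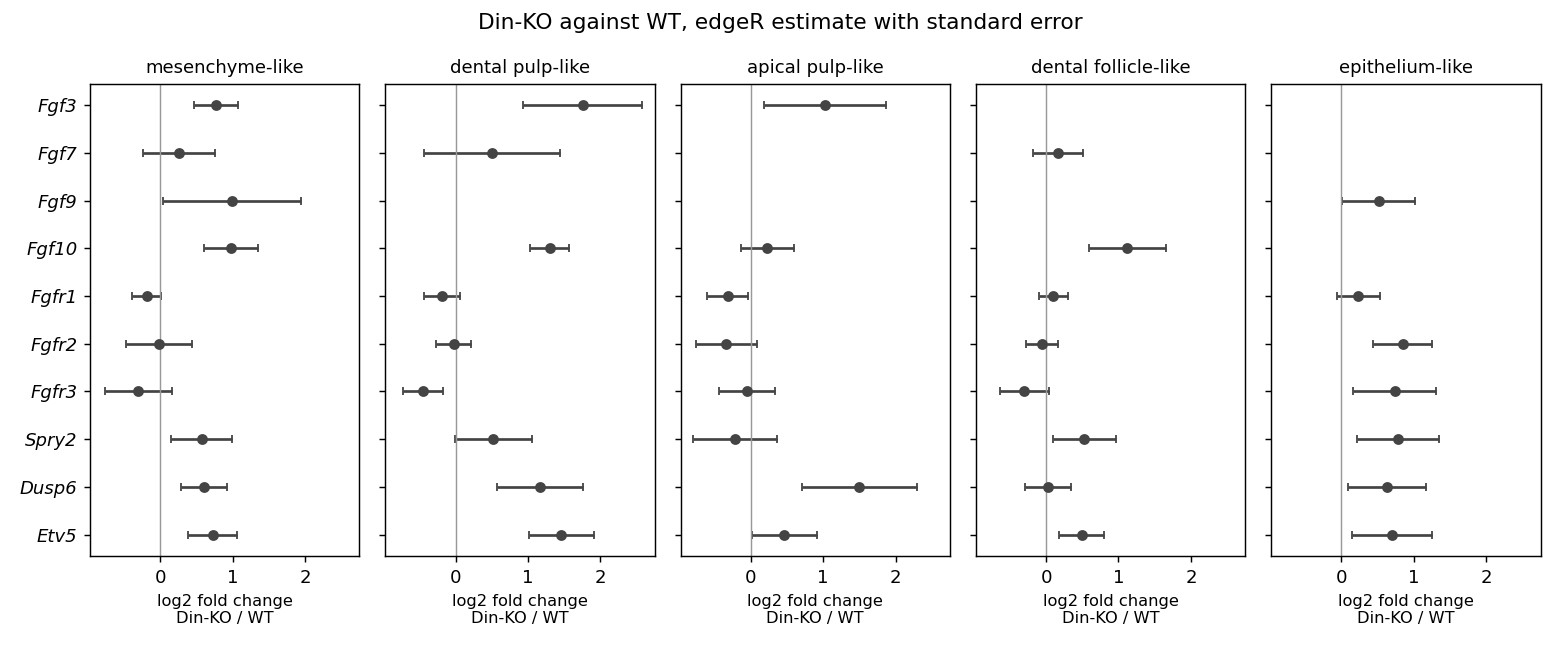
Log2 fold changes of Din-KO against WT for the 10 FGF genes in 5 classes, on the horizontal axes, with standard errors as bars, for genes that passed the filter on low counts. Folds ranged up to 1.76 (Fgf3 in dental pulp-like cells), and none passed the adjusted threshold in these fits without a block.

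Genes whose levels ran most like each member over the 56 sums of 16 classes and 4 libraries were listed as a description, since the sums share libraries and depth. Among 9668 genes, Foxd1 was nearest to both Fgf10 (Pearson r of 0.888) and Fgf3 (0.753), and Foxd1 was among the markers by which apical pulp-like cells were named. Plppr1 (0.886) and Gm973 (0.866) came next for Fgf10, and Spry4 (0.75) and Coch (0.75) for Fgf3. Fgf9 ran with the desmosomal cadherin Dsc3 (0.917), Vwa2 (0.878) and Igfbpl1 (0.874), and Fgf7 with Pdzrn4 (0.808) and Rspo1 (0.797), a secreted activator of WNT signaling. The receptors ran most like Me1 (Fgfr1, 0.906), Pfn2 (Fgfr2, 0.855) and Col9a2 (Fgfr3, 0.838). Spry2 and Etv5 had relatives of theirs nearest, Spry1 (0.704) and Etv1 (0.707), whereas Dusp6 had Sptlc2 (0.84).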

How the data were processed

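For each library the authors deposited a sparse table of raw UMI counts. CellRanger 6.0.2 and mm10/GRCm38 are named for that step. Barcodes were kept from 1000 genes upward if mitochondrial UMIs did not exceed 10% and hemoglobin UMIs 3%, then integrated and clustered in Seurat 5.3.0 (2000 variable genes without the FGF genes, cell cycle regressed, 30 components, resolution of 1). Clusters were named where at least 3 markers were detected in at least 10% of cells and their 10 leading genes did not favor another class, and a dental pulp-like cluster was called apical at a mean marker z above 0.5. Doublets were not removed, as Scrublet (scanpy 1.11.5) marked 99 cells, 87 of them in 1 library. UMIs were summed per class and library and fitted with the quasi-likelihood method of edgeR 4.0.16 after filterByExpr and TMM scaling (Benjamini-Hochberg, 0.05), with DESeq2 1.42.0 as an alternative, after a test on simulated data. The SE of a fold is its size divided by the square root of F. The precision of a CPM is limited by 32198098 to 54348039 UMIs per library, and counting limits cover counting error only. Coordinates are from GENCODE vM21.

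The FGF genes, the pathway list and the markers were chosen with earlier results of these data known, and the scoring of markers, the apical threshold and the separation of odontoblast-like clusters were set with the data in hand. Genes named are the FGF genes, up to 5 pathway genes a role past the threshold by size of fold, and genes from the 3 most like each FGF gene (of which not all are reported here), and the genotype folds printed were picked after their values were seen. Alternatives were another size factor, fits of unfiltered counts, omission of each library, Xist-positive cells only, removal of the highest 5% of doublet scores, a resolution of 0.5, FGF genes kept for clustering, fits with and without blocks, and, added after seeing the data, inclusion of an unnamed mesenchymal cluster. No file columns of the authors' own comparisons were used.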

Additional observations from a re-analysis of the deposited data

Results flagged for a closer look

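Fgf9, an epithelial ligand, gave opposite signs by genotype in odontoblast-like against dental pulp-like cells. Its log2 ratio of CPM + 1 was negative in both WT libraries and positive in both Din-KO libraries, a mean difference of 0.655. Stated as the Din-KO effect in odontoblast-like minus that in dental pulp-like cells, the difference was 0.65 on the log2 scale. Fgf9 levels in dental pulp-like cells were 0.326, 0.404, 0.211 and 0 CPM and in the odontoblast-like class 0.214, 0.192, 0.593 and 0.467 CPM, and the gene passed no filter on low counts there, so this difference was not tested.

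Fgfr3, a receptor, was also counted in a mesenchymal cluster of 562 cells that was given no name and entered no class comparison. Its mean level there was 168 CPM over the 2 libraries with at least 20 cells of that cluster. Mesenchyme-like cells held 58.8 ± 20.9 CPM (SD, n = 4). Other dental pulp-like cells held 162 ± 43.0 CPM (SD, n = 4), and the level of the unnamed cluster lay within their range. Fgfr1 stood at 523 and 564 CPM and Fgf10 at 1.01 and 1.89 CPM in the same 2 libraries.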

How the results depend on the processing

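Of 335 values of FGF genes called in the main comparisons and recomputed under an alternative, 317 kept their direction and call, 18 lost the call and 0 changed sign. Of 646 values not called, 587 stayed so with the same sign, 43 changed sign and 16 became called.

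Counts of genes called between genotypes moved most. In mesenchyme-like cells, 0 by edgeR became 16 (DESeq2), 5 (no filter on low counts) and 2 to 4 (1 library left out). In dental pulp-like cells, 2 became 16 (DESeq2), 66 (no filter), 0 (Xist-positive cells), 0 (resolution of 0.5) and 19 to 104 (1 library left out), and FGF genes called rose to 2 without the filter (Fgf3 1.73 and Fgf10 1.28) and 0 to 2 with 1 library left out. In apical pulp-like cells, 0 became 3 (DESeq2), 23 (no filter) and 3 to 21 (1 library left out), and the Fgf10 fold ranged from -0.084 (without WT replicate 2) to 0.82 (without WT replicate 1). In follicle-like cells, 0 became 1 (other size factors), 41 (DESeq2), 160 (no filter), 2 (highest doublet scores removed) and 4 to 33 (1 library left out). In epithelium-like cells, 0 became 6 (DESeq2), and the Fgf9 fold ranged from -0.13 (without Din-KO replicate 2) to 0.96 (without Din-KO replicate 1).

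Between epithelium-like and mesenchyme-like cells, leaving out 1 library gave 3059 to 4179 genes and 5 to 7 FGF genes. Between apical and other dental pulp-like cells it gave 1895 to 3592 genes, and the fit with no replicate block and no library block 2004. Clustering with the FGF genes called 3 FGF genes between these classes, a count lowered by FGF genes not tested rather than by lost calls. The Fgfr2 fold there, -0.07, ranged from -0.22 (without WT replicate 2) to 0.033 (without WT replicate 1), with 0.013 without Din-KO replicate 1, and turned to 0.64 (resolution of 0.5), 0.029 (FGF genes kept) and 0.0058 (unnamed cluster included). Dusp6 in dental pulp-like against follicle-like cells ranged from -0.62 (without Din-KO replicate 2) to 0.30 (without WT replicate 1). Thinned to 2000 UMIs a cell, mean Fgf7 in the follicle was 15.8 CPM. Causes of these moves were not tested.

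Replicate numbers are shared by the genotypes, but the labels do not say what they stand for. Same-numbered deviations correlated at 0.785 over 15205 genes in 2 pairs. With the replicate block, edgeR called 153 of 15205 genes in mesenchyme-like cells, with 1 FGF gene (Fgf10 0.97, adjusted p = 0.020). In dental pulp-like cells 362 of 13503 genes were called, with 4 FGF genes (Fgf3 1.38, Fgf10 1.26, Dusp6 0.97, Etv5 1.50). The counts were 12 of 9268 in apical pulp-like cells, 56 of 12968 in follicle-like cells and 0 of 11493 in epithelium-like cells. Depth limits low genes: Fgf7 and Fgf9 had 358 and 412 UMIs in all, and with 2 libraries a genotype small differences were not detectable.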
